A study of Mus musculus with 36 samples.

Results

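The genes described here are 10 genes of glucose uptake and glycolysis, chosen by symbol from the known pathway and required in all 4 deposited expression tables: the glucose transporter genes Slc2a1 (ENSMUSG00000028645) and Slc2a3 (ENSMUSG00000003153), Hk2 (ENSMUSG00000000628), Pfkp (ENSMUSG00000021196), Aldoa (ENSMUSG00000030695), Gapdh (ENSMUSG00000057666), Pgk1 (ENSMUSG00000062070), Eno1 (ENSMUSG00000063524), Pkm (ENSMUSG00000032294) and Ldha (ENSMUSG00000063229). The choice was made with earlier results of these data known. All 10 were found, among 56925 genes listed in at least 1 table, and all 10 passed the filter on low values in each table that was tested. RNA was sequenced from natural killer (NK) cells of mice in 36 libraries, which fall into 12 groups of 3, to compare responsive with desensitized NK cells.

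The first table held 18 libraries of mature splenic NK cells, CD27-CD11b+, from wild-type (WT) C57BL/6 mice and from B2m-/- mice (KO), which lack the light chain of MHC class I. In both genotypes TP cells carried the inhibitory receptors Ly49C, Ly49I and NKG2A, SP cells carried Ly49I alone, and TN cells carried none of them. The second table held NK cells purified from WT splenocytes after 22 h of culture, with either vehicle or the calcium ionophore ionomycin. The third held splenic NK cells of WT mice cultured for 48 h, in medium alone or on plates coated with 2 antibodies, against the activating receptors NKp46 and NKG2D in one arm and NKp46 and DNAM-1 in the other. Groups of the third table were read from its column names, which differ from the sample titles for 6 of 9 samples. The fourth held CD27-CD11b+ NK cells of WT mice from subcutaneous tumours of B2m-deficient MC38, a colon carcinoma line, collected on day 10 after injection; this table has no control group, and its columns carry the words B2MKO and SP, which the titles do not explain. Labels give no ages, and they do not say whether equal replicate numbers mark 1 mouse, so p-values measure the spread between these samples.

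Glucose enters leukocytes mainly through GLUT1 and GLUT3, the proteins of Slc2a1 and Slc2a3, and is trapped in the cell by hexokinases such as Hk2. Phosphofructokinase, of which Pfkp encodes the platelet isoform, commits it to glycolysis. Aldoa, Gapdh, Pgk1, Eno1 and Pkm carry out later steps, of which those of Pgk1 and Pkm yield ATP. Lactate dehydrogenase A (Ldha) turns pyruvate into lactate and regenerates NAD+. Cytokine-primed or receptor-activated NK cells are known to use more glucose, and HIF-1 and MYC are known to bind short CACGTG-type sites near several genes of the pathway.

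RefSeq promoters, taken as the 250 bases before a transcription start in build GRCm38.p6, matched 9 of the 10 genes, all but Slc2a3. They were searched on both strands for ACGTG, for the related core GCGTG, and for the longer motif CACGTG, which contains the first core. The windows shown are those of the gene with a called change in the antibody experiment (Ldha, with 2 annotated starts), of the 2 enzyme genes closest to a call there (Gapdh and Pgk1) and of the gene that lay on the opposite side (Pfkp); capitals mark the motifs on either strand.
Ldha promoter, chr7:46845554-46845803, plus strand: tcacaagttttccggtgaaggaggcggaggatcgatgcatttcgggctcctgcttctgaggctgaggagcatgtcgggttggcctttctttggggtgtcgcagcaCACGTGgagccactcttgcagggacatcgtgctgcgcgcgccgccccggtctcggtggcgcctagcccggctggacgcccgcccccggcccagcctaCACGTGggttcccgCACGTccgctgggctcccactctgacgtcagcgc
Ldha promoter, chr7:46846832-46847081, plus strand: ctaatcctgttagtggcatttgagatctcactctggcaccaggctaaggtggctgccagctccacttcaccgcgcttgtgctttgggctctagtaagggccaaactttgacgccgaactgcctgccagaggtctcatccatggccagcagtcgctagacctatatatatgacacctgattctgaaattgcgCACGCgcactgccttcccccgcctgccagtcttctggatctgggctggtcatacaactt
Gapdh promoter, chr6:125165774-125166023, minus strand: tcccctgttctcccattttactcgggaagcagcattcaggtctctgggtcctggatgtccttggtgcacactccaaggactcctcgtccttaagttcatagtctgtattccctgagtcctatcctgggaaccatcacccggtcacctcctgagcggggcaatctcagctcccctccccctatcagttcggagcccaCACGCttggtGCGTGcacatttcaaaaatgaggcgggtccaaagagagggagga
Pgk1 promoter, chrX:106186850-106187099, plus strand: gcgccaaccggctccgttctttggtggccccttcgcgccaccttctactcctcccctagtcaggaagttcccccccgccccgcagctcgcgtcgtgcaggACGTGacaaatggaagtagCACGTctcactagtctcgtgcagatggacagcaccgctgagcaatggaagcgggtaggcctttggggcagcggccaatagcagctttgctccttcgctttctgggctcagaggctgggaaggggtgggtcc
Pfkp promoter, chr13:6648772-6649021, minus strand: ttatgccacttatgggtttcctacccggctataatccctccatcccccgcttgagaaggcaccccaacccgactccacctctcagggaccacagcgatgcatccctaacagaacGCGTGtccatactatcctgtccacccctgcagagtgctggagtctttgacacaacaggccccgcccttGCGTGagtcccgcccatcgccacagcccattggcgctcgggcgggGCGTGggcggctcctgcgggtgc
The upstream Ldha window holds CACGTG beginning 145 and 48 bases before the start, and was the only window of the 9 genes with CACGTG, which 6.0% of 32851 promoters hold. In a check against known Ldha transcripts, 0 held the bases just after this upstream start and 1 held those after the downstream start. The downstream window holds GCGTG but neither ACGTG nor CACGTG, so both of these matches for Ldha rest on the upstream window. ACGTG was present for 6 of the 9 genes against 18.5% of 27025 genes, and GCGTG for 5 of 9 against 30.9%. Either core was present for 9 of 9 genes against 41.5%. Genes with several annotated starts, such as Aldoa, Eno1, Pkm and Ldha, had more chances of a match. The 27025 genes were not matched to the 9 in base content, and its part in these shares was not tested. Pfkp held GCGTG at 3 places and no ACGTG. All 9 genes held a core, so its presence could not tell the gene with lower values with antibodies from those with higher values. A match is a stretch of letters, and no binding was measured.

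Values are TPM, which adjust for transcript length and can be compared between genes of a library, but each table was normalized separately and none was tested against another. TPM keep no record of depth, so no counting error can be given; genes above 0 numbered 12290 to 14501 per library in the subset table, 13904 to 15483 in the ionomycin table, 13555 to 18096 in the antibody table and 14155 to 16271 in the tumour table. B2m read 2915 to 3420 TPM in the 9 WT subset libraries and 73.9 to 128 TPM in the 9 KO libraries. All 9 NK cell markers were present in every group, and the summed T cell markers stayed at or below 71.6 TPM. Changes are differences of log2(TPM + 1), with standard errors and adjusted p-values from limma fitted over every gene of a table; the word called is used for genes whose adjusted p was under 0.05.

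In sorted splenic cells Eno1, Pkm, Aldoa, Pfkp, Ldha and Gapdh stood above the transporters in every group mean, while Pgk1 lay near the transporters and Hk2 below them. Eno1 had the highest mean in all 6 subset groups, from 361 ± 23.7 TPM in KO SP to 434 ± 25.7 TPM in WT SP (mean ± SD, n = 3 here and below), although its libraries overlapped those of the next gene in all groups but WT TP and WT SP. Pkm, Aldoa and Pfkp followed between 291 and 378 TPM in group means, then Ldha at 216 to 238 TPM and Gapdh at 149 to 183 TPM. Slc2a3 lay at 59.1 to 106 TPM, Pgk1 at 58.5 to 67.2 TPM and Slc2a1 at 46.9 to 72.3 TPM, and these 3 overlapped in most groups. Hk2 was close to the limit of detection, between 0 and 6.54 TPM, with a zero in 1 WT SP library. The sum of the 10 genes was 2009 ± 64.6 TPM in WT TP and 1888 ± 69.7 TPM in KO SP, the lowest of the 6 group means.

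**Figure D1:**
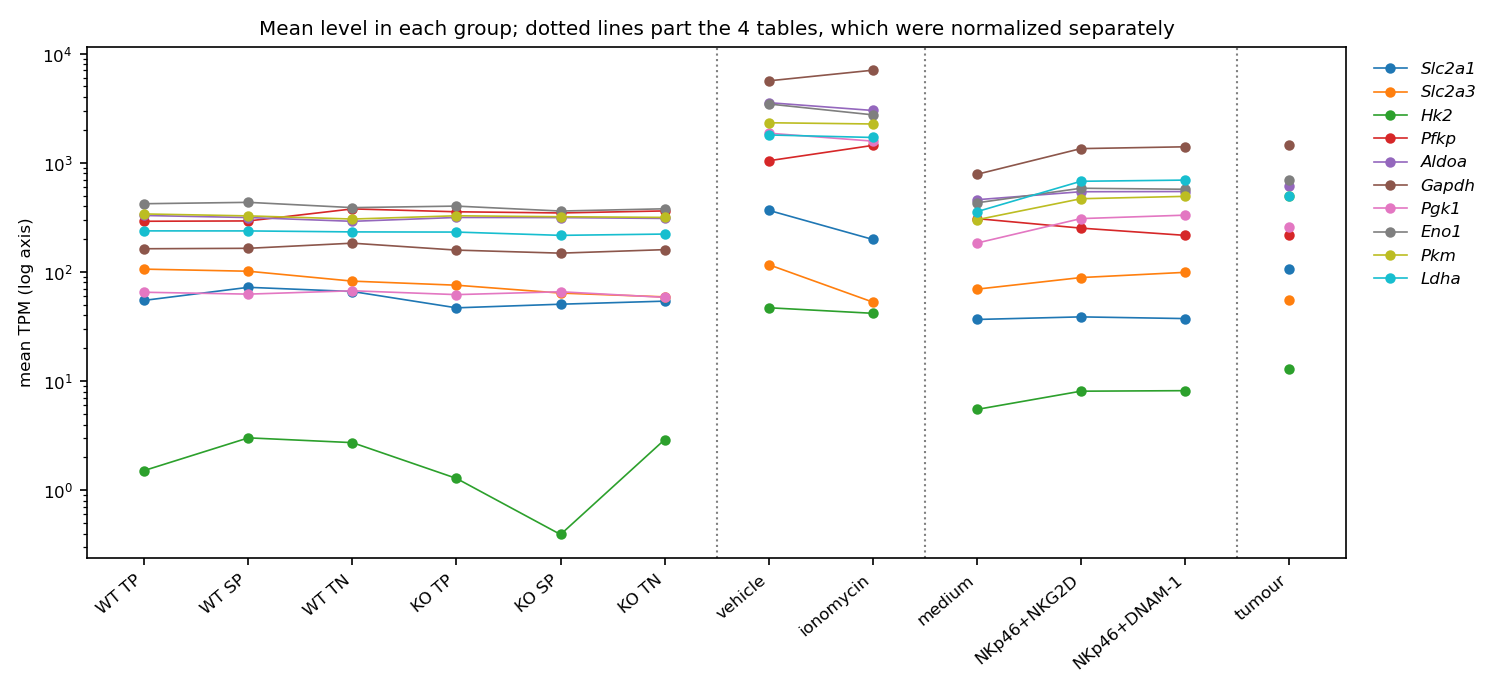
Mean TPM (log axis) of each of the 10 genes in the 12 groups; dotted lines separate the 4 tables, which are not on a common scale. Within the subset table group means of Slc2a3 run from 59.1 to 106 TPM and those of Slc2a1 from 46.9 to 72.3 TPM. The other lines there are flatter, apart from Hk2, which is near 0. With the antibodies Ldha, Gapdh, Pgk1 and Pkm are higher and Pfkp is lower than in medium.

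Across tables the order of the genes differed. Gapdh was sixth in every subset group but first in the vehicle, ionomycin, medium, both antibody and tumour groups, where no library of the next gene reached it. The sum of the 10 genes was 20193 ± 3181 TPM with vehicle and 20084 ± 925 TPM with ionomycin, against 2930 ± 310 TPM in medium and 4413 ± 589 TPM in tumours. Culture, sort and normalization differ between the tables and cannot be told apart in these sums.

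With plate-bound antibodies most of the 10 genes had higher values than in medium. With NKp46 and NKG2D antibodies 9 of the 10 genes had a higher mean of log2 values than in medium, with NKp46 and DNAM-1 antibodies also 9 of 10, and Pfkp was the exception in both. Ldha passed the test in each comparison and rose 1.90-fold and 1.95-fold. The other genes of lower glycolysis had higher values in every antibody library than in any medium library, without passing the threshold in the main fit. The main fit does not use replicate numbers. With a replicate block, given in the closing section, Gapdh, Pgk1 and Pkm also passed in both comparisons and Pfkp, lower, in the second. Calls over all genes rose with the block too. Both antibody groups were compared with the same 3 medium libraries, so the 2 comparisons are not independent.

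**Figure D2:**
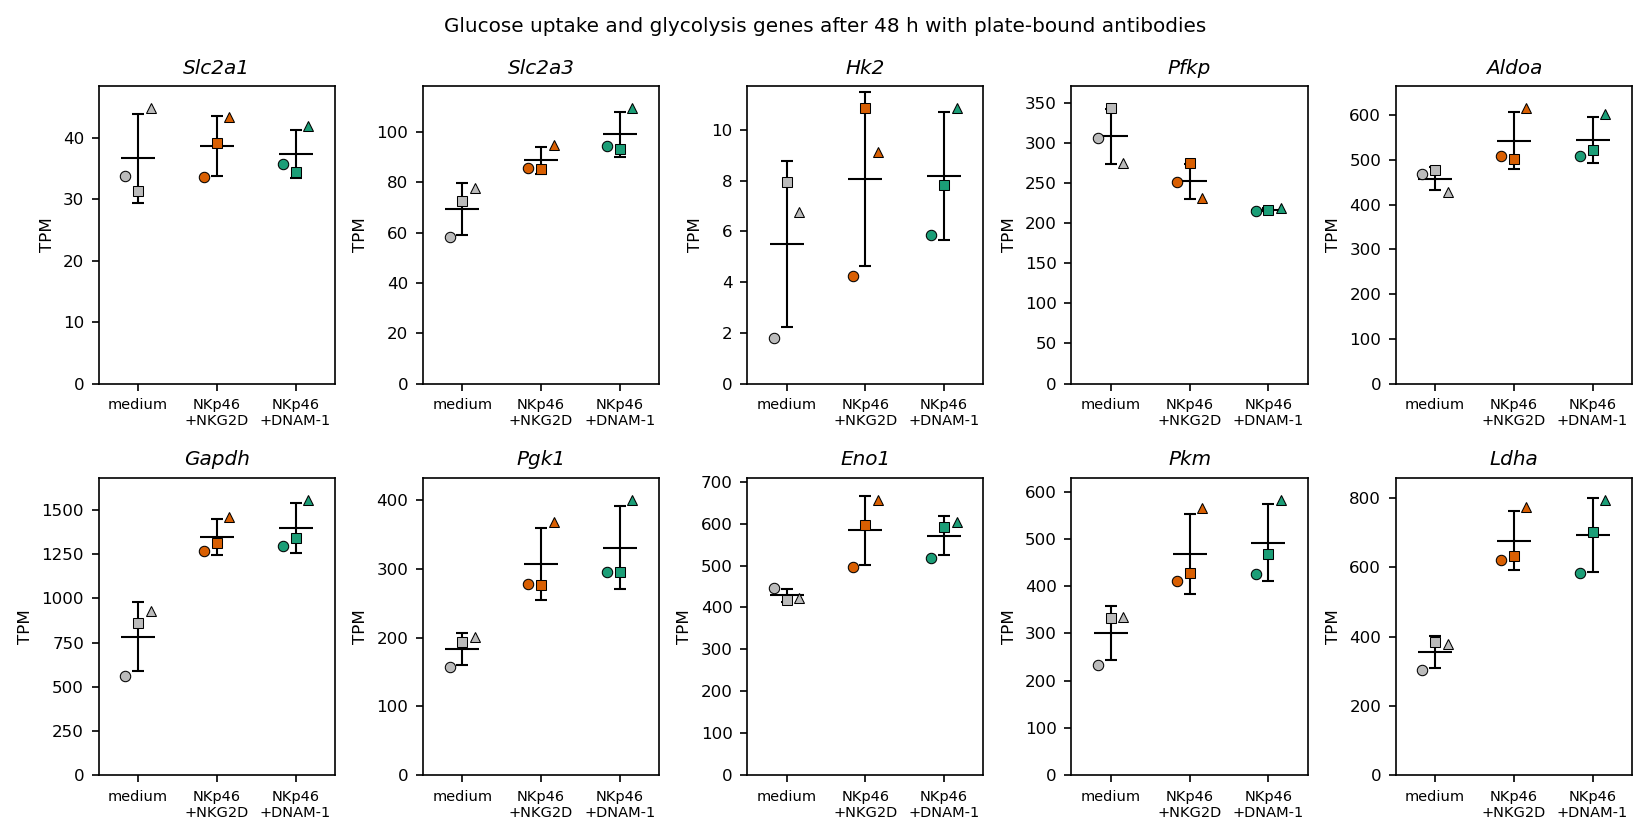
TPM of each gene in medium and with each pair of antibodies; symbols are the 3 libraries (circle, square and triangle for replicates 1, 2 and 3), bars the mean and SD. Ldha, Gapdh, Pgk1, Eno1, Pkm, Aldoa and Slc2a3 are higher in every antibody library than in any medium library, Pfkp is lower in every one, and Slc2a1 and Hk2 overlap.

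Of the transporters, Slc2a1 read 33.8, 31.3 and 44.9 TPM in medium, 33.6, 39.1 and 43.4 TPM with NKp46 and NKG2D antibodies, and 35.7, 34.5 and 41.9 TPM with NKp46 and DNAM-1 antibodies. The 3 groups overlapped, and the log2 differences from medium were 0.09 (95% interval -0.33 to 0.50) and 0.04 (-0.37 to 0.45). Slc2a3 read 58.1, 72.5 and 77.8 TPM in medium, 85.9, 85.4 and 94.9 TPM with NKp46 and NKG2D antibodies, and 94.4, 93.2 and 109.6 TPM with NKp46 and DNAM-1 antibodies. Its antibody libraries all lay above its medium libraries, with log2 differences of 0.36 ± 0.14 (SE; adjusted p 0.273) and 0.51 ± 0.14 (adjusted p 0.121).

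Neither gene of the early steps, Hk2 or Pfkp, was called. Hk2, the inducible hexokinase, read 1.78, 7.95 and 6.76 TPM in medium, 4.25, 10.9 and 9.13 TPM with NKp46 and NKG2D antibodies, and 5.84, 7.81 and 10.9 TPM with NKp46 and DNAM-1 antibodies. These ranges overlapped, and the 95% intervals of its log2 differences from medium were -0.55 to 1.69 and -0.49 to 1.75. Pfkp read 306, 343 and 275 TPM in medium, 250.4, 274 and 231 TPM with NKp46 and NKG2D antibodies, and 215, 216 and 218 TPM with NKp46 and DNAM-1 antibodies. Its 6 antibody libraries lay below all medium libraries, by -0.29 ± 0.11 (adjusted p 0.252) and -0.50 ± 0.11 (adjusted p 0.0672) on the log2 scale, which did not pass the threshold.

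In the middle of the pathway, Aldoa, which splits fructose bisphosphate, read 469, 478 and 428 TPM in medium, 509, 503 and 616 TPM with NKp46 and NKG2D antibodies and 509.8, 522 and 604 TPM with NKp46 and DNAM-1 antibodies, a separation of 0.24 ± 0.11 and 0.25 ± 0.11 on the log2 scale. Gapdh, the dehydrogenase often used as a reference gene, read 562, 858 and 928 TPM in medium, 1268, 1315 and 1459 TPM with NKp46 and NKG2D antibodies and 1297, 1343 and 1559 TPM with NKp46 and DNAM-1 antibodies. All 6 antibody libraries of Gapdh lay above the 3 medium libraries, with log2 differences of 0.81 ± 0.17 (adjusted p 0.0819) and 0.87 ± 0.17 (adjusted p 0.0505). Pgk1, the first enzyme of the pathway to make ATP, read 157, 194 and 201 TPM in medium, 279, 277 and 368 TPM with NKp46 and NKG2D antibodies and 296, 296 and 401 TPM with NKp46 and DNAM-1 antibodies. Its groups did not overlap either, and its log2 differences of 0.74 ± 0.16 and 0.84 ± 0.16 had adjusted p-values of 0.095 and 0.0512.

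Toward pyruvate, Eno1 read 447, 418 and 423 TPM in medium, 497, 597 and 658 TPM with NKp46 and NKG2D antibodies and 518, 593 and 605 TPM with NKp46 and DNAM-1 antibodies. Pkm, pyruvate kinase, read 234, 331 and 335 TPM in medium, 411, 427 and 566 TPM with NKp46 and NKG2D antibodies and 426, 467 and 583 TPM with NKp46 and DNAM-1 antibodies. Neither gene's antibody libraries overlapped those in medium, with adjusted p-values of 0.135 and 0.12 for Eno1 and 0.157 and 0.101 for Pkm. Ldha read 304, 385 and 379 TPM in medium, 622, 632 and 775 TPM with NKp46 and NKG2D antibodies, and 584, 701 and 796 TPM with NKp46 and DNAM-1 antibodies. The lowest antibody library of Ldha was well above the highest medium library, and its log2 changes were 0.93 ± 0.14 (limma, adjusted p 0.0231) and 0.96 ± 0.14 (adjusted p 0.0191).

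Counted over the genes, 1 of 10 was called with NKp46 and NKG2D antibodies, where 0.431% of the 13689 genes tested were called, and 1 of 10 with NKp46 and DNAM-1 antibodies, where 0.782% were called. Groups did not overlap for 8 of 10 genes in the first comparison, 7 of them higher, against 17.3% of all genes tested (7.5% higher), and for 8 of 10 in the second, 7 of them higher, against 21.1% (9.46% higher). The median log2 difference of the 10 genes was 0.50 and 0.57, where the median over all genes tested was -0.04 in both. Because the 10 genes were chosen with earlier results of these data known, these counts and medians are not an independent test. The call for Ldha rested on the column names: with groups taken from the sample titles its log2 difference was 0.21 (adjusted p 0.97) for NKp46 and NKG2D antibodies and 0.36 (adjusted p 0.746) for NKp46 and DNAM-1 antibodies, and no gene of the 10 was called. It was also lost without the filter on low values (0.0772 and 0.0637) and without the variance trend (0.105 and 0.0922), and in the second comparison with only its own groups fitted (0.0586). The number called moved between 0 and 2 in the first comparison and between 0 and 4 in the second when single libraries were left out: it was 2 without medium replicate 3 in the first, and 2 without medium replicate 1 and 4 without medium replicate 3 in the second. Calls over all genes moved too: they numbered 59 and 107 with all libraries, 311 and 604 without medium replicate 3, and 84 in the second comparison without medium replicate 1. Of the 10 genes 0 were called in the first without medium replicate 1 (61 of all genes) or without any 1 of the NKp46 and NKG2D libraries (31 to 37), and 0 in the second without replicate 2 or 3 of the NKp46 and DNAM-1 libraries (26 and 30).

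Other measures also differed between medium and antibodies. Genes above 0 numbered 13555 to 14674 in medium and 16107 to 18096 with antibodies. The summed level of 6 handling genes (Fos, Fosb, Jun, Hspa1a, Hspa1b, Dnajb1) was 155 to 204 TPM in medium and 78.1 to 96.3 TPM with antibodies, and the 6 T cell markers summed to 27.6 to 71.6 TPM and 20.1 to 39.6 TPM. The part of these measures in the differences of Ldha and the other genes was not tested. In bulk RNA, a different share of cells and a different amount of RNA per cell cannot be told apart.

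The 2 antibody pairs were compared directly. None of the 10 genes was called by limma, where 0.0146% of all genes were, and 0 of 10 had an unadjusted p under 0.05, against 1.22% of genes tested. For Ldha the difference of NKp46 and NKG2D minus NKp46 and DNAM-1 was -0.03 (95% interval -0.35 to 0.28) and for Gapdh -0.05 (-0.42 to 0.32). Pfkp had a difference of 0.22 (-0.02 to 0.45), with every NKp46 and NKG2D library above every NKp46 and DNAM-1 library. It was the only 1 of the 10 genes with such separation, which 7.42% of genes tested showed. The missing calls do not show that the antibody pairs act alike.

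**Figure D3:**
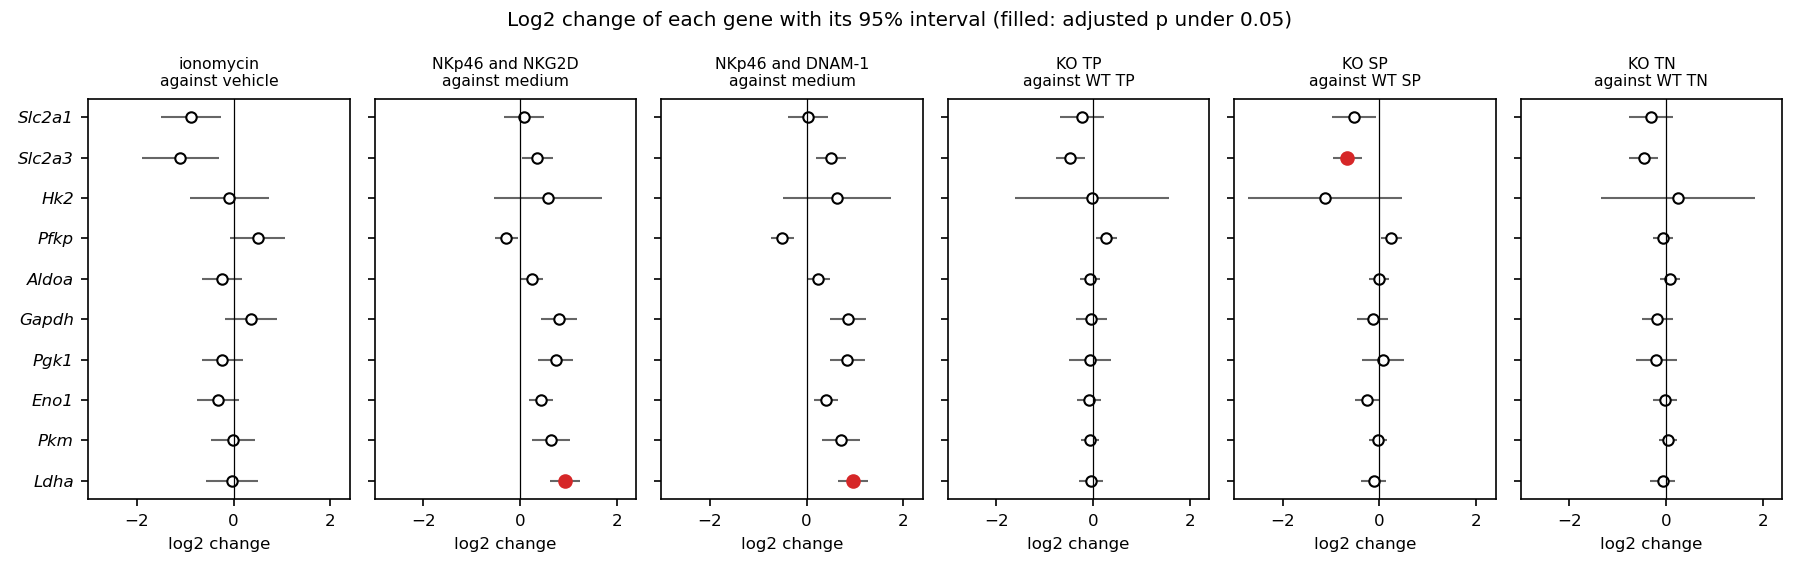
Log2 change (x axis) of each gene with its 95% interval in 6 comparisons; filled points passed an adjusted p under 0.05. Filled points are Ldha with each antibody pair and Slc2a3 in KO SP against WT SP; Hk2 has the widest intervals in the subset and antibody tables.

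Between genotypes the transporter Slc2a3 was lower in KO cells in each subset and passed the test in SP cells. It read 102, 103 and 99.8 TPM in WT SP and 71.5, 54.6 and 65.9 TPM in KO SP, so that no KO library reached the lowest WT library, and it fell by 0.66 ± 0.14 on the log2 scale (limma, adjusted p 0.0238), to 0.631 of the WT mean. In TP cells it read 102, 91.0 and 125 TPM in WT and 75.1, 79.5 and 72.1 TPM in KO (log2 difference -0.47 ± 0.14, adjusted p 0.135). In TN cells it read 67.8, 95.3 and 83.9 TPM in WT and 61.0, 62.8 and 53.4 TPM in KO (-0.46 ± 0.14, adjusted p 0.212). Groups were apart in all 3 subsets, but the call in SP cells was lost when any 1 WT SP library, KO SP replicate 2 or KO SP replicate 3 was left out, with an adjusted p between 0.0591 and 0.147, and when SP cells were fitted alone (0.0803). It held without the KO TP libraries, which are described below (adjusted p 0.0472).

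Slc2a1 read 74.8, 71.0 and 71.0 TPM in WT SP and 42.2, 51.0 and 58.6 TPM in KO SP, again without overlap, with a log2 difference of -0.52 ± 0.22 that was not called (adjusted p 0.347). In TP cells it read 54.1, 52.4 and 58.1 TPM in WT and 41.3, 49.6 and 49.7 TPM in KO (-0.23 ± 0.22, adjusted p 0.752). In TN cells the genotypes overlapped, at 84.2, 67.4 and 46.8 TPM in WT and 40.2, 75.1 and 46.6 TPM in KO. The TN libraries spread widely in both genotypes.

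**Figure D4:**
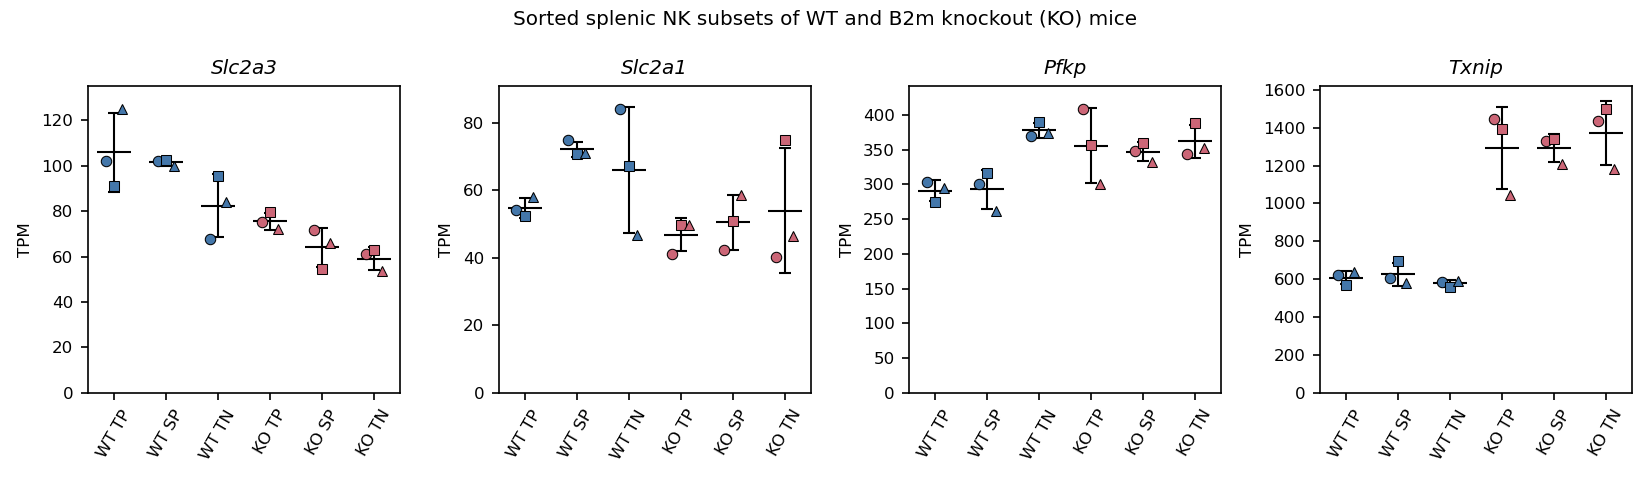
TPM of Slc2a3, Slc2a1, Pfkp and Txnip in the 6 subset groups, WT in blue and KO in red; symbols are the 3 libraries, bars the mean and SD. Slc2a3 is lower in every KO library than in the WT libraries of its subset, Pfkp is highest in mean in WT TN, and Txnip is at least 1045 TPM in all KO libraries and at most 694 TPM in all WT libraries.

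Of the enzymes, Pfkp had a higher mean in KO than WT for TP cells, 409, 356 and 301 TPM against 304, 275 and 295 TPM (log2 difference 0.28 ± 0.10, adjusted p 0.237), and for SP cells, 348, 360.0 and 333 TPM against 300.1, 317 and 262 TPM (0.25 ± 0.10, adjusted p 0.324). The SP groups did not overlap for Pfkp and the TP groups did. Eno1 also separated in SP cells, with 374, 376 and 334 TPM in KO and 454, 405 and 443 TPM in WT (-0.26 ± 0.12, adjusted p 0.384). Aldoa, Gapdh, Pgk1, Pkm and Ldha overlapped between genotypes in all 3 subsets, with log2 differences from -0.20 to 0.08. Hk2 was at or below 6.54 TPM in both genotypes, and its intervals, such as -2.71 to 0.47 in SP cells, were too wide to show a difference at this level.

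Read as counts, 0 of 10 genes were called in TP cells (1.59% of 12018 genes tested were), 1 of 10 in SP cells (1.35%) and 0 of 10 in TN cells (0.716%). Unadjusted p-values under 0.05 were found for 2, 4 and 1 of the 10 genes, against 11.8%, 11.7% and 10.5% of all genes tested. Groups were apart for 2 genes in TP cells, 4 in SP cells and 1 in TN cells, against 18.3%, 18.9% and 13.7% of all genes tested. Median log2 differences of the 10 genes were -0.06, -0.13 and -0.06, and those of all genes 0.04, 0.03 and 0.02.

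The summed handling genes were 46.9 to 67.7 TPM in WT and 85.2 to 167 TPM in KO subset libraries, and moved with genotype in the same groups as Slc2a3. In KO TP libraries the 5 neutrophil markers summed to 38.0 to 168 TPM, and B and plasma cell markers to 332 to 517 TPM, against 0 TPM and at most 180.0 TPM in WT TP. In the SP libraries, where Slc2a3 was called, neutrophil markers were at most 1.76 TPM in KO and 0.15 TPM in WT. Genes above 0 numbered 12290 to 13418 in WT SP and 13813 to 14501 in KO SP, without overlap. The part of the handling genes and of the number of genes above 0 in the Slc2a3 difference was not tested.

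Within WT mice Pfkp had its highest values in TN cells, without a call. It read 304, 275 and 295 TPM in TP, 300.1, 317 and 262 TPM in SP and 369.6, 389 and 374 TPM in TN cells, so the TN libraries lay above all others. Groups without overlap, in either direction, were found for 14.6% of all genes tested in TN against TP and 11.4% in TN against SP. For Pfkp TN exceeded TP by 0.38 ± 0.10 on the log2 scale (adjusted p 0.0818) and SP by 0.37 ± 0.10 (adjusted p 0.14). Neither passed the threshold, although the first did after median-of-ratios rescaling (adjusted p 0.0456). In KO mice the TN and TP libraries of Pfkp overlapped, at 344, 389 and 353 TPM and at 409, 356 and 301 TPM. The difference between genotypes in this TN against TP change was -0.34 ± 0.14 with an adjusted p of 0.733, so it was not shown to differ.

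Slc2a3 was lower in TN than TP cells by -0.36 ± 0.14 in WT (adjusted p 0.284) and -0.35 ± 0.14 in KO (adjusted p 0.652), and the KO groups did not overlap. Its interaction was 0.01 (95% interval -0.41 to 0.44). Slc2a1 in WT SP cells, at 71.0 to 74.8 TPM, lay above the 52.4 to 58.1 TPM of WT TP cells, with a log2 difference of 0.39 ± 0.22 (adjusted p 0.686). No gene of the 10 was called by limma in any of the 6 comparisons between subsets or in the interaction, where 1.31%, 0.191%, 0.383%, 0.524%, 0.2%, 0.0416% and 0.025% of genes were called, in the order WT TN against TP, SP against TP, TN against SP, the same 3 in KO, and the interaction. Unadjusted p-values under 0.05 were found for 2, 0, 2, 1, 0, 0 and 1 of the 10, in the same order, against 12.5%, 7.71%, 12.1%, 6.43%, 2.93%, 2.77% and 6.27% of genes tested. Groups were apart for 1, 1, 2, 1, 2 and 1 of the 10 in the 6 subset comparisons, against 14.6%, 10.6%, 11.4%, 13.2%, 10.9% and 10.9%. Hk2 in KO SP cells read 0.400, 0.440 and 0.340 TPM, below all KO TP and KO TN libraries, at levels where the log2(TPM + 1) scale shows little.

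With ionomycin for 22 h both transporters had lower values than with vehicle in every library, and most enzymes overlapped between the groups. Slc2a1 read 346, 482 and 273 TPM with vehicle and 157, 251 and 187 TPM with ionomycin, which did not overlap, a ratio of means of 0.541 and a log2 difference of -0.87 ± 0.27 (adjusted p 0.155). Slc2a3 read 92.1, 170.0 and 87.6 TPM with vehicle and 35.1, 58.2 and 65.6 TPM with ionomycin, also apart, a ratio of 0.454 and a log2 difference of -1.10 ± 0.35 (adjusted p 0.161). Neither transporter was called by limma.

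Eno1 was the third gene whose groups were apart, at 3808, 3569.9 and 2986 TPM with vehicle and 2396, 2962 and 2885 TPM with ionomycin (-0.33 ± 0.19, adjusted p 0.488). Pfkp read 753, 1388 and 988 TPM with vehicle and 1230.4, 1636 and 1459 TPM with ionomycin, and Gapdh 7172, 5656 and 4048 TPM and 7331, 7143 and 6649 TPM; these were the 2 genes with positive log2 differences, 0.50 ± 0.25 and 0.36 ± 0.24, and both overlapped. Ldha read 2313, 1783 and 1295 TPM with vehicle and 1551, 1801 and 1762 TPM with ionomycin, a log2 difference of -0.04 (95% interval -0.57 to 0.50). Aldoa, Pgk1, Pkm and Hk2 overlapped as well, with log2 differences from -0.24 to -0.02.

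In all, 0 of 10 genes were called with ionomycin, where 2.91% of 14372 genes were, and 2 of 10 had an unadjusted p under 0.05, against 15.1%. Groups were apart for 3 of 10, against 20.1%, and all 3 were lower, against 9.57% of genes that were apart and lower. The vehicle libraries spread widely for Gapdh and Ldha, and their NK cell marker sum ran from 6917 to 17382 TPM, against 5221 to 7183 TPM with ionomycin. Neutrophil markers summed to 293 TPM in vehicle replicate 3 and 119 TPM in ionomycin replicate 3 and to at most 2.19 TPM in the other 4 libraries; without those 2 libraries the number of genes called was also 0. Genes above 0 numbered 13904 to 14578 with vehicle and 15157 to 15483 with ionomycin, without overlap, and the handling genes summed to 149 to 275 TPM and 264 to 314 TPM. The part of these measures in the transporter values was not tested.

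In tumour NK cells, where no test was possible, the genes stood in the order Gapdh, Eno1, Aldoa, Ldha and Pkm, then Pgk1 and Pfkp, then the transporters and Hk2. Gapdh read 1274, 1656 and 1436 TPM and lay above all other genes. Eno1 read 495, 823 and 779.7 TPM, Aldoa 608, 675 and 539.6 TPM, Ldha 478, 554 and 471 TPM and Pkm 412, 601 and 482 TPM, and neighbours in this order overlapped. Pgk1 read 145, 286 and 349 TPM, and Pfkp 225, 212 and 212 TPM.

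Slc2a1 at 118, 93.6 and 111 TPM lay above Slc2a3 at 44.9, 70.3 and 49.4 TPM in every tumour library, and Hk2 read 10.9, 20.2 and 7.46 TPM. Handling genes summed to 2007 to 8019 TPM in these libraries, fibroblast markers to 8.00 to 123 TPM, red cell markers to 0 to 335 TPM and carcinoma markers to 1.93 to 4.89 TPM, with Krt18 and Krt19 at 0 in all 3. Neutrophil markers were at 0. Their part in the levels of the 10 genes was not tested.

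Shares among isoforms, computed after the levels had been seen, showed which paralogue made up each step. Slc2a1 made up 31.7% to 55.4% of the summed TPM of Slc2a1 and Slc2a3 in the subset libraries, 73.9% to 81.7% in the ionomycin table, 27.0% to 36.8% in the antibody table and 57.1% to 72.4% in tumours. Within the antibody table the share was 30.2% to 36.8% in medium and 27.0% to 27.7% with NKp46 and DNAM-1 antibodies. With NKp46 and NKG2D antibodies it was 28.1% to 31.4%, which overlapped medium. The transporter with the higher level was therefore Slc2a3 in all antibody libraries and Slc2a1 in all libraries of the ionomycin and tumour tables.

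**Figure D5:**
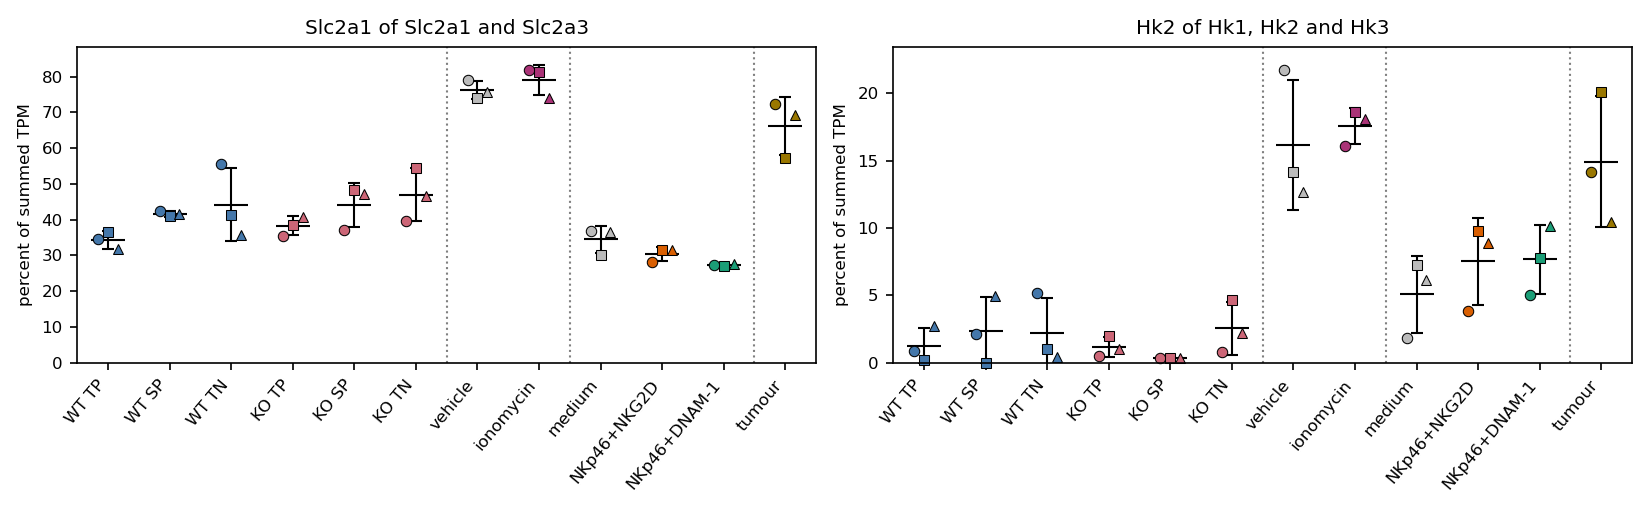
Share of Slc2a1 in the summed TPM of the 2 transporter genes (left) and of Hk2 in the summed TPM of 3 hexokinase genes (right), in percent per library, with mean and SD; dotted lines separate the tables. Slc2a1 is above 50% in every library of the ionomycin and tumour tables, and Hk2 is at most 5.14% in the subset table and at least 10.5% in the tumour libraries.

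Hk2 was a minor hexokinase everywhere, with 0% to 5.14% of the summed TPM of Hk1, Hk2 and Hk3 in the subset table, 12.7% to 21.7% in the ionomycin table, 1.86% to 10.1% in the antibody table and 10.5% to 20.1% in tumours. Hk1, the constitutive hexokinase, read 90.6 to 123 TPM in the subset libraries. Pfkp made up 71.1% to 92.3% of the 3 phosphofructokinase genes in all libraries, Aldoa at least 96.1% of the aldolases, Eno1 at least 88.8% of the enolases and Ldha at least 98.9% of Ldha and Ldhb. Ldhb, the heart-type subunit, was listed at 0 in most libraries, with at most 5.54 TPM. Near-copies of the genes were low in the tables: Eno1b reached 22.2 TPM and all other listed copies 2.47 TPM or less, so reads shared with these copies could touch Eno1 most, and copies under other names were not searched.

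Other genes of the pathway were counted over 3 lists. Of 23 other transporters, isoenzymes and exporters, 18 passed the filter in the antibody table and 0 were called by limma in either comparison with medium, where 0.431% and 0.782% of all genes were. An unadjusted p under 0.05 was found for 4 of 18 in each, near the 15.1% and 18% of all genes tested, and the median log2 difference was -0.04 and 0.01 against -0.04 for all genes. Of these genes 18 were also tested in the subset table, and the 1 call was Slc2a6, a transporter of the same family as Slc2a1. It read 11.6, 9.80 and 9.57 TPM in WT TP and 3.55, 4.38 and 1.77 TPM in KO TP, and fell by 1.47 ± 0.28 on the log2(TPM + 1) scale (limma, adjusted p 0.0103). Its call was lost without WT TP replicate 1 (0.057), without KO TP replicate 3 (0.0624) and with only those groups fitted (0.142), and the KO TP libraries hold the neutrophil and B cell transcripts given above. With ionomycin 19 were tested and 0 called by limma, against 2.91% of all genes, and 4 had an unadjusted p under 0.05, against 15.1%.

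Among 22 regulators and branch points, Txnip was called in all 3 genotype comparisons. Its product, an arrestin-like protein, is known to hold back glucose uptake by removing GLUT1 from the surface. Txnip read 619, 569 and 637 TPM in WT TP and 1445, 1391 and 1045 TPM in KO TP, and every KO library of the subset table lay above every WT library. On the log2 scale Txnip rose by 1.07 ± 0.11 for TP cells (adjusted p 2.2e-05), by 1.05 ± 0.11 for SP cells (adjusted p 3.9e-05) and by 1.24 ± 0.11 for TN cells (adjusted p 5.4e-06). The only other call on this list was Myc, a transcription factor that drives growth and glycolysis, which was higher in WT TN (53.9, 64.3 and 57.0 TPM) than WT TP cells (36.5, 41.2 and 26.2 TPM), by 0.76 ± 0.17 (adjusted p 0.0389). The Myc call was lost without the filter (0.051), without the variance trend (0.053), with only those groups fitted (0.319), without the KO TP libraries (0.0697) and without any 1 of the 6 libraries other than WT TP replicate 2 (0.073 to 0.165). No other regulator of the 19 tested was called in the subset table, none of 19 in the ionomycin table and none of 20 in the antibody table, where 4, 3 and 4 had an unadjusted p under 0.05 with ionomycin, NKp46 and NKG2D antibodies and NKp46 and DNAM-1 antibodies, near the 15.1%, 15.1% and 18% of all genes tested.

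Of 15 other genes known to be induced by hypoxia, 12 were tested in the subset table, and Ddit4, an inhibitor of mTORC1, was the 1 called in each genotype comparison. It read 45.7, 64.5 and 51.1 TPM in WT TP and 120.0, 183 and 109.3 TPM in KO TP, and rose by 1.31 ± 0.21 for TP, by 1.55 ± 0.21 for SP and by 1.43 ± 0.21 for TN cells (limma, adjusted p 0.00206, 0.000424 and 0.00159). The handling genes moved with genotype in the same direction as Txnip and Ddit4, and their part was not tested. With ionomycin 2 of 14 tested were called, where 2.91% of all genes were. Ddit4 fell by 1.76 ± 0.33 (72.9 to 20.3 TPM in means, adjusted p 0.0281), and Egln3, an oxygen-sensing prolyl hydroxylase, fell by 1.79 ± 0.33 (131 to 35.1 TPM, adjusted p 0.0281). Both calls were lost without the filter, without the variance trend, without vehicle replicate 2 and without any 1 ionomycin library (adjusted p 0.0645 to 0.138 for Ddit4 and 0.0767 to 0.157 for Egln3), and that of Ddit4 also without both libraries with neutrophil transcripts (0.0716). The NK cell marker sum and the genes above 0 given for these libraries differed between the same groups, and their part was not tested.

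With antibodies, 10 of the 12 tested hypoxia genes had lower log2 means with each antibody pair, with medians of -0.30 and -0.44 against -0.04 for all genes. The share of all genes with lower log2 means was not counted. With NKp46 and DNAM-1 antibodies 1 of the 12 was called, where 0.782% of all genes tested were. It was Vegfa, an angiogenic growth factor. Vegfa read 47.7, 21.1 and 33.4 TPM in medium and 10.9, 7.70 and 10.0 TPM with NKp46 and DNAM-1 antibodies, and fell by 1.67 ± 0.30 on the log2 scale (adjusted p 0.0383). With NKp46 and NKG2D antibodies it read 12.0, 9.09 and 10.8 TPM, a difference of -1.52 (adjusted p 0.0773). With groups from the sample titles the Vegfa difference with NKp46 and DNAM-1 antibodies was -0.25 (adjusted p 0.909). The call was also lost without the filter (0.086), without the variance trend (0.0672), with only those groups fitted (0.124), without medium replicate 1 (0.0668) and without any 1 of the NKp46 and DNAM-1 libraries (0.104 to 0.166). With groups from the column names, Vegfa and Ldha lay on opposite sides of medium in the same libraries.

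The 10 genes did not all vary together. Over the 36 libraries, with each table centred on its mean, Ldha followed the mean of the other 9 genes most closely (Pearson r 0.731), followed by Pkm (0.672), Gapdh (0.664) and Eno1 (0.624), while Pfkp went against it (-0.431). In the 9 antibody libraries these values were 0.929 for Ldha, 0.984 for Pkm, 0.949 for Gapdh and -0.745 for Pfkp. The order did not hold in the other tables: in the 18 subset libraries Gapdh (0.619) and Slc2a1 (0.580) came first, with Hk2 at 0.492, Ldha at 0.425, Eno1 at 0.222 and Pkm at 0.001, and in the 6 ionomycin libraries Eno1 (0.896) and Pgk1 (0.894) came first, with Ldha at 0.697 and Gapdh at 0.016. Pfkp was negative in both, at -0.275 and -0.295. Among 10218 other genes, the 5 most like the mean of the 10 were Prelid1 (r 0.750), Gm10177 (0.713), Ncapg2 (0.704), Hbegf (0.700) and Fam120a (0.694). Genes were not scaled to equal spread, so genes that vary widely weigh more in each mean. In the subset table Hk2, near the limit of detection, had a standard error of 0.75, against 0.22 for Slc2a1. The order of genes there therefore depends heavily on Hk2. These values describe libraries that share groups and tables, and carry no test.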

How the data were processed

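Per the submitters' processing notes, the authors used STAR, RSEM and GRCm39, with no roles or versions given, and deposited 4 tables of TPM for 36 libraries. Total RNA entered a kit for mRNA, per the labels' protocols. TPM keep no depth, so precision is the spread over 3 libraries per group. Groups came from titles, or from column names in the antibody table. Genes averaging 1 TPM or more across a table were transformed as log2(TPM + 1), which understates changes of low genes. Limma 3.58.1 in R 4.3.3 fitted 1 mean per group over all groups of a table with an intensity trend; p-values were two-sided and Benjamini-Hochberg adjusted over all genes tested within each comparison. With 3 against 3, an exact permutation test cannot go under 0.1, so calls rest on the model. The script was tested on simulated data. Named genes are the 10 members, and those called in 3 pathway lists. The members and lists were chosen with earlier results of these data known. Alternatives were the pseudocount, filter, scaling, variance trend, fewer groups, replicate block, titles and leaving out libraries. Each table has 1 batch date, which does not show whether mice, sorting or library preparation differed between the groups compared.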

Additional observations from a re-analysis of the deposited data

How the results depend on the processing

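Genes called among the 10, by comparison, were recomputed under each alternative. In WT TN against WT TP the number was 0, and 1 (Pfkp) after median-of-ratios rescaling and, in an alternative added after seeing the data, without the KO TP libraries. In KO SP against WT SP it was 1, and 0 with only those groups fitted, and 0 to 1 with 1 library left out. With NKp46 and NKG2D antibodies it was 1; it was 0 without a filter, without the variance trend or with groups from titles, 4 with the replicate block (Gapdh, Pgk1, Pkm, Ldha; 239 of all genes against 59), and 0 to 2 with 1 library left out. With NKp46 and DNAM-1 antibodies it was 1; it was 3 with a pseudocount of 0.1 or quantile normalization, 0 without a filter, without the trend, with only those groups or with titles, 5 with the replicate block (Pfkp lower; Gapdh, Pgk1, Pkm and Ldha higher; 528 of all genes against 107), and 0 to 4 with 1 library left out. In the other 10 comparisons it was 0 under every alternative run. Labels do not say that replicate numbers mark 1 mouse: same-numbered libraries correlated at a mean of 0.010 in the subset, 0.062 in the ionomycin and 0.064 in the antibody table, and 0 of 18, 1 of 3 and 1 of 9 pairs were over 0.1. Differently numbered libraries of different groups correlated at means of -0.005, -0.031 and -0.032 in the same order. The cause of the moves in the number called was not tested. No change of a called gene reversed; Slc2a3 in KO SP kept its call in 8 of 14 alternatives, Ldha in 7 of 14 and 8 of 14, Txnip in 13 of 13 and in 14 of 14 for SP and for TN cells, Slc2a6 in 10 of 13, Myc in 5 of 14, Vegfa in 6 of 14, Egln3 in 7 of 13 and Ddit4 with ionomycin in 6 of 13. TPM without depth limits what can be said of Hk2, whose levels in sorted cells were near 0.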
